A study of Mus musculus with 18 samples.

Results

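Collagen chain genes encode the subunits of collagens, the proteins that build most of the extracellular matrix of vertebrate tissues. The genes described here are those whose symbol has the form Col, a type number, the letter a and a chain number, and which a transcript cluster of the array names alone. The rule found 44 genes of 22180 measured, and they cover 27 collagen types. A cluster is the set of probes that reads one transcript locus, and 47 clusters named a single collagen chain gene. Col1a2, Col5a1 and Col6a1 had more than 1 such cluster, and each of them is read here from its brightest cluster on average.

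RNA came from hypothalamus, pituitary and ovary of superovulated female mice, labelled BABL/c, which were 9 weeks old at superovulation. The mice had been raised as 10 littermate pairs, 1 mouse of each pair serving as control and the other being assigned to stress. The stress was transport by road over 1000 km for about 10 h at about 50 km per h. The control mice are labelled as control with no further treatment named. Each tissue of each treatment was measured on 3 arrays: the single mouse that ovulated the most oocytes (high), the single mouse that ovulated the fewest (low), and a pool of the 8 other mice. All 18 arrays therefore come from superovulated mice, and each class within a treatment is 1 mouse or 1 pool, so that any p value measures the spread over these few samples.

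A collagen molecule is a triple helix of 3 chains, made in the endoplasmic reticulum with the help of prolyl and lysyl hydroxylases and the chaperone HSP47, then trimmed and cross-linked outside the cell. Fibrillar collagens, such as types I, III and V, form the tensile fibrils of connective tissue. Type IV forms the sheet-like network of basement membranes, which in the ovary surround follicles and vessels, and type VI forms beaded filaments near cells. In the pituitary and the ovary, stromal and perivascular cells are known sources of these chains, whereas brain tissue holds little fibrillar collagen outside its vessels and coverings.

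The deposited values are log2 signals with no missing value, so a difference of 1 is a doubling. Levels are compared only within a gene, since probes of different genes respond differently. Correlations between arrays ran from 0.941 to 0.993 within a tissue and from 0.828 to 0.941 between tissues. Marker genes of each tissue lay above all arrays of the other tissues for 6 of 8 hypothalamic, 7 of 7 pituitary and 7 of 8 ovarian genes, the exceptions being Nr5a1, Rax and Amh. Both stressed brain and pituitary pools carried the ovarian steroidogenic transcript Cyp11a1, at 10.52 in hypothalamus and 11.34 in pituitary, against 3.51 to 6.99 on the 10 other arrays of those tissues. Both ovary pools carried the pituitary hormone transcript Prl, at 10.82 and 11.44, against 3.63 to 5.09 on the 4 ovary arrays of single mice. On 3 arrays genes of cartilage and bone matrix were high, and these are described with the stress comparison. In bulk tissue, fewer cells of a type and less RNA per cell cannot be told apart.

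Upstream sequence, 250 bases before the annotated start in the RefSeq table of assembly GRCm38.p6, was given for 35 of the 44 genes in 38 windows. Windows are shown for Col3a1, which had the largest difference of ovary from hypothalamus, for Col1a2, which had the largest difference of pituitary from hypothalamus, and for Col25a1, the chain whose signal was highest in hypothalamus on every array. Capitals mark matches to the CCAAT box (CCAAT or ATTGG), the GC box (GGGCGG or CCGCCC) and the TATA box (TATAAA or TTTATA), searched on both strands.
Col3a1, chr1:45311288-45311537, + strand: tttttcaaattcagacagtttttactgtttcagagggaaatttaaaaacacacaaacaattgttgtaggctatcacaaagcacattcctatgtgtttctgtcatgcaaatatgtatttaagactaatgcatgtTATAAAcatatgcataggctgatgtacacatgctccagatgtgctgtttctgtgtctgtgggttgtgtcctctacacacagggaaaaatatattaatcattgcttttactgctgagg
Col1a2, chr6:4505368-4505617, + strand: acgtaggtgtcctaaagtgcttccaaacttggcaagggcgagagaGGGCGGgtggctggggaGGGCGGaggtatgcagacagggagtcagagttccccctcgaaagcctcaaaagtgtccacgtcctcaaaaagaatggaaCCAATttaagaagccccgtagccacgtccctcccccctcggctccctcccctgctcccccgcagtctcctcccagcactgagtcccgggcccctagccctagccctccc
Col25a1, chr3:130180595-130180844, + strand: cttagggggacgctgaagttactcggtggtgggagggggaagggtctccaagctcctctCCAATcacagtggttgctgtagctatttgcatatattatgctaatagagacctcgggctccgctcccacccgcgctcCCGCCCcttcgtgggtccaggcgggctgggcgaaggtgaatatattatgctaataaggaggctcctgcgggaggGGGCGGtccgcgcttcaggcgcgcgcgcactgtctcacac
The Col3a1 window held 1 TATA box match and no match to the other motifs. The windows of Col1a2 and Col25a1 each held 1 CCAAT box and 2 GC box matches. Over all 38 windows of collagen chain genes a GC box match was present in 57.9%, against 32.7% of all 32851 windows of that length. For the CCAAT box the shares were 34.2% and 33.8%, and for the TATA box 13.2% and 12.4%. Col4a1 and Col4a2, which encode the chains of the most widespread type IV molecule, are read in opposite directions from annotated starts 21 bases apart. A match is a run of letters and no measurement of binding.

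The ovary had the highest mean signal for 32 of the 44 genes, the pituitary for 7 and the hypothalamus for 5. For 13 genes all 6 ovary arrays lay above all 12 other arrays, which held for 8.64% of all genes measured. These were Col3a1, Col4a1, Col4a2, Col5a1, Col5a2, Col6a1 to Col6a5, Col12a1, Col15a1 and Col18a1. Col25a1 alone lay above all other arrays in hypothalamus, where the background was 8.76%, and no collagen chain gene did so in pituitary, where it was 3.11%. As a reference for little signal, the 95th percentile of the tissue means of 1105 odorant receptor genes was 4.56, 4.65 and 4.58 in hypothalamus, pituitary and ovary, respectively. Under it lay 7 chains in hypothalamus, 7 in pituitary and 5 in ovary, of which Col4a6, Col10a1, Col19a1 and Col28a1 were low in all 3 tissues.

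**Figure D1:**
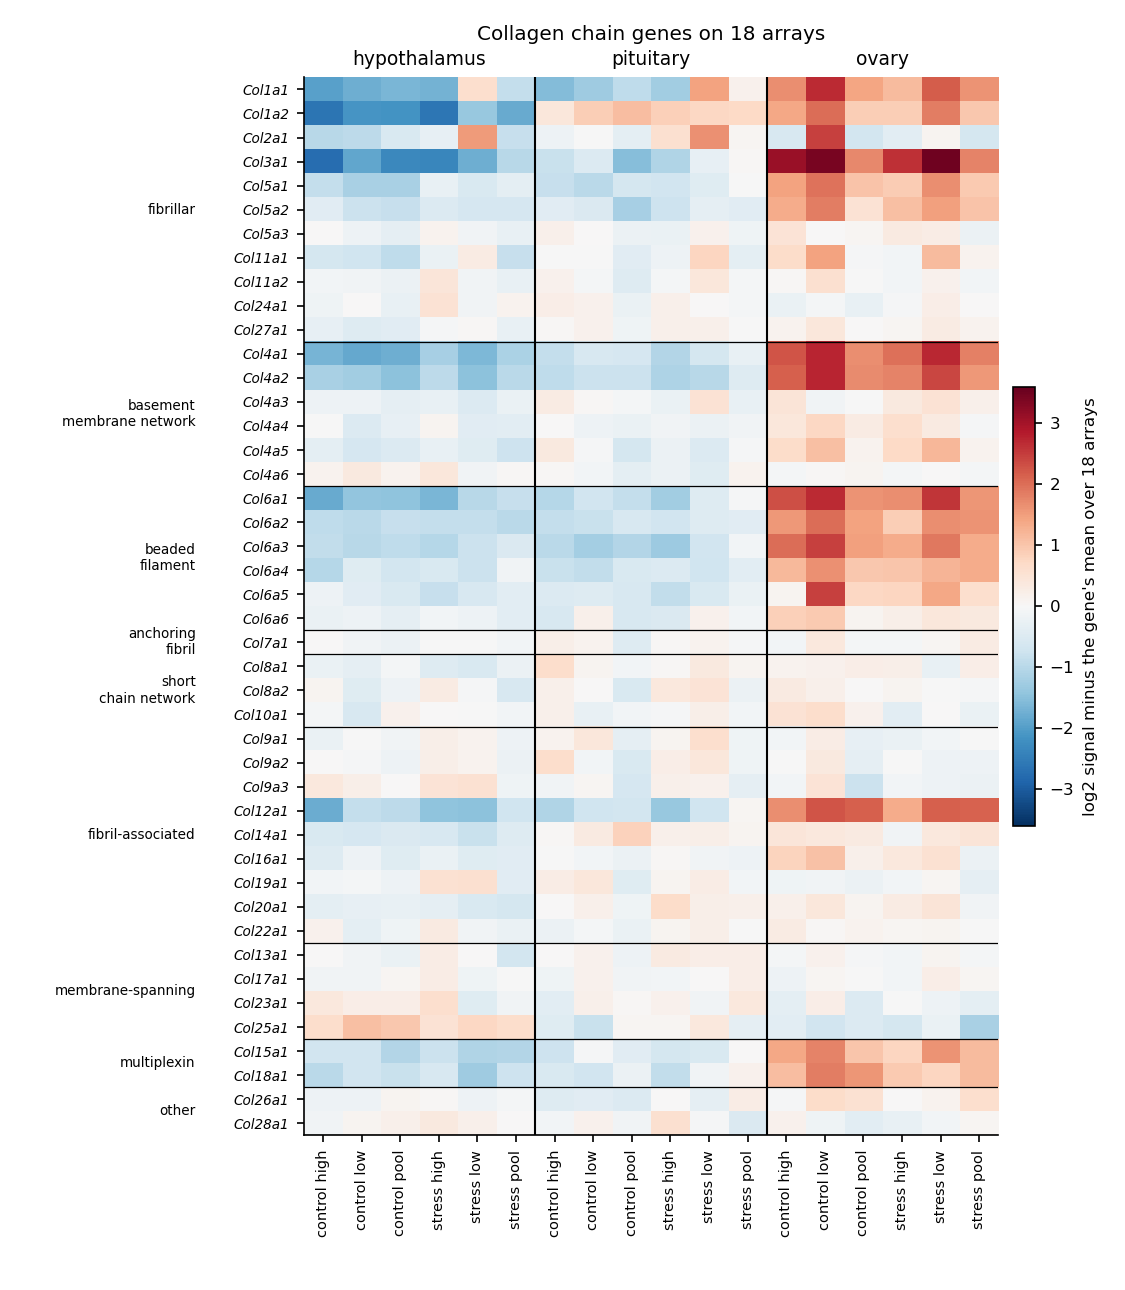
Log2 signal of each of the 44 collagen chain genes (rows, grouped by kind of collagen) on each of the 18 arrays (columns, by tissue, treatment and ovulation class), shown as the difference from that gene's mean over all arrays. The ovary columns are red for the main fibrillar, type IV, type VI and multiplexin chains, Col25a1 is red in hypothalamus, and single arrays stand out for Col1a1 and Col2a1.

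In the comparison of ovary with hypothalamus, 26 chains were higher in ovary and 1 was lower at an adjusted p under 0.05 in limma, against 25.7% of all genes higher and 21.5% lower. The median difference over the 44 chains was 0.57, and over all genes 0.03. In ovary against pituitary 21 chains were higher and 1 was lower, with backgrounds of 21.8% and 19.2%. Pituitary against hypothalamus gave 10 higher and 1 lower, with backgrounds of 19.9% and 19.6%, so its count of higher chains was near the background share. In that comparison the count of calls was 7 in place of 11 without the pool arrays. Tissue contrasts were fitted over all 18 arrays with the mouse or pool as a random block.

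**Figure D2:**
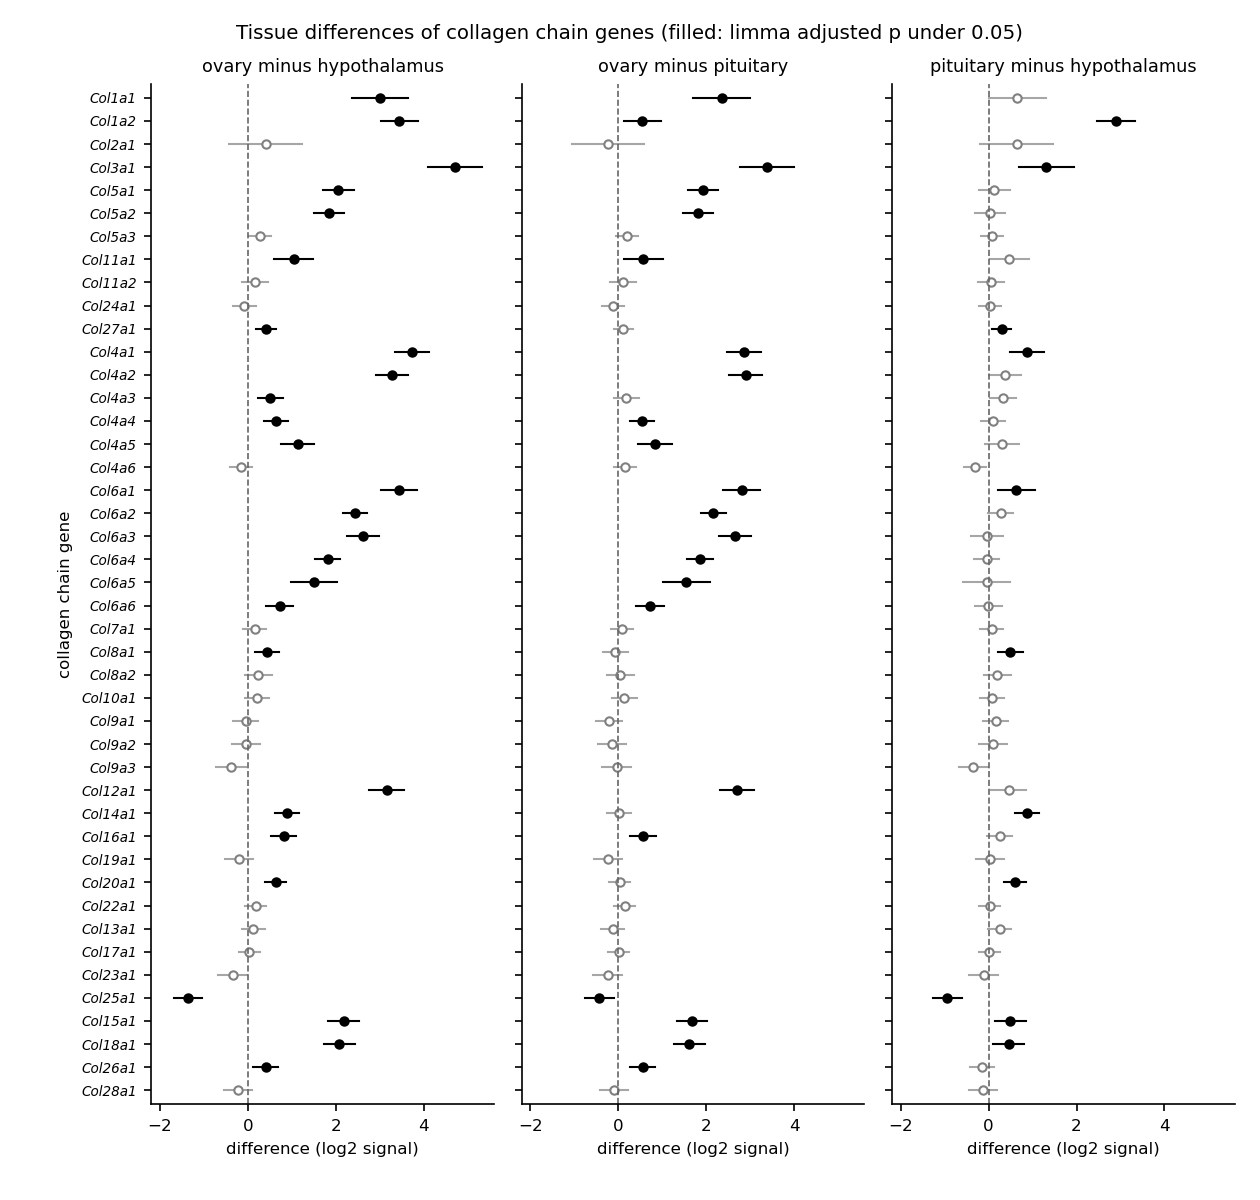
Difference in log2 signal between tissues for each collagen chain gene, with the 95% confidence interval from limma, in 3 panels. Filled points passed an adjusted p of 0.05: 27 chains in ovary minus hypothalamus, 22 in ovary minus pituitary and 11 in pituitary minus hypothalamus. The largest difference is that of Col3a1 in the first panel, at 4.71.

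Among the 11 fibrillar chains, 7 were higher in ovary than in hypothalamus and 6 higher than in pituitary. Col3a1, the only chain of type III collagen, had signals of 4.89, 5.52 and 6.62 in hypothalamus (lowest, median and highest of 6 arrays), 6.09, 6.98 and 7.65 in pituitary and 9.35, 10.49 and 11.13 in ovary. The lowest ovary array therefore lay above the highest array of both other tissues. Its ovary signal exceeded that of hypothalamus by 4.71 (95% interval 4.09 to 5.32, limma adjusted p 8.04e-11), a 26.1-fold difference. It exceeded that of pituitary by 3.39 (2.77 to 4.01, limma adjusted p 1.66e-08). Pituitary lay above hypothalamus by 1.32 (0.70 to 1.93, limma adjusted p 0.00124).

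Col1a1 and Col1a2 encode the chains of type I collagen, and their patterns across tissues differed. Col1a1 had 6.41, 6.67 and 8.95 in hypothalamus, 6.79, 7.27 and 9.80 in pituitary and 9.49, 9.99 and 11.03 in ovary. Col1a2 had 5.75, 6.23 and 6.99 in hypothalamus, 8.76, 9.17 and 9.46 in pituitary and 9.24, 9.55 and 10.39 in ovary. Col1a2 was thus near its ovary level in pituitary, while Col1a1 was near its hypothalamus level on most pituitary arrays. Pituitary minus hypothalamus was 2.90 for Col1a2 (2.48 to 3.32, limma adjusted p 1.06e-09) and 0.65 for Col1a1 (0.01 to 1.29, adjusted p 0.103). Within the 6 mice or pools this difference ran from 2.13 to 3.46 for Col1a2 and from 0.38 to 1.03 for Col1a1, so the ranges did not overlap. Ovary minus pituitary was 2.35 for Col1a1 (limma adjusted p 3.50e-06) and 0.54 for Col1a2 (adjusted p 0.0371). The call for Col1a2 was lost when any of 7 of the 18 arrays was left out, with adjusted p up to 0.124.

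Col5a1 and Col5a2, the chains of type V collagen that start fibrils, were higher in ovary than in hypothalamus by 2.06 and 1.84 and than in pituitary by 1.93 and 1.82. The Col5a1 cluster not used here did not show this. Its means were 4.30, 4.28 and 4.48 in hypothalamus, pituitary and ovary, under the odorant receptor reference, and its ranges overlapped. Col11a1, a type XI chain best known from cartilage, was higher in ovary than in hypothalamus by 1.04 (limma adjusted p 0.000351). Its difference from pituitary, 0.57 (adjusted p 0.0366), passed with all arrays and was lost in 8 of 18 fits that left out 1 array. Col27a1 was higher than in hypothalamus by 0.41 in ovary and by 0.30 in pituitary, the second being lost in 5 of 18 such fits. Col2a1, the chain of cartilage type II collagen, passed in no tissue contrast with all arrays. Without the 3 arrays on which cartilage and bone genes were high, Col2a1 was called higher in pituitary than in hypothalamus, by 0.76 (limma adjusted p 0.00107), and lower in ovary than in pituitary, at -0.56 (adjusted p 0.0121). Without the control low ovary alone, these adjusted p values were 0.0481 and 0.0314. The 3 arrays were picked after seeing the data, and each holds the highest Col2a1 value of its tissue. Leaving such values out narrows the spread, so these p values are no support for a difference. Col5a3, Col11a2 and Col24a1 also passed in no tissue contrast with all arrays.

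**Figure D3:**
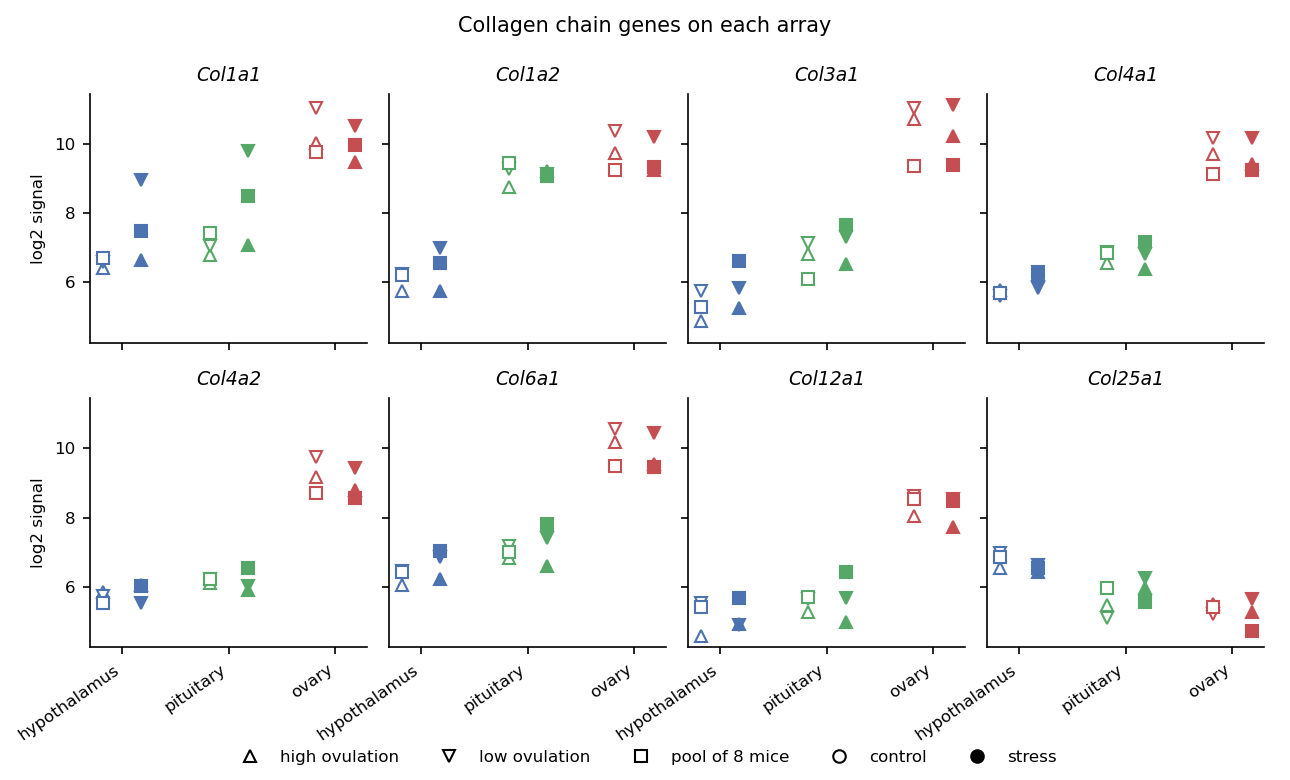
Log2 signal of 8 collagen chain genes on each array, by tissue; triangles pointing up and down are the single mice of high and low ovulation, squares are pools of 8 mice, and open and filled symbols are control and stress. Col1a2 sits high in pituitary, Col1a1 does not except in the stressed low mouse (9.80) and stressed pool (8.51), and Col25a1 is highest in hypothalamus.

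Of the 6 type IV chains, 5 were higher in ovary than in hypothalamus and 4 higher than in pituitary. Col4a1 had 5.6, 5.81 and 6.30 in hypothalamus, 6.39, 6.83 and 7.16 in pituitary and 9.13, 9.56 and 10.18 in ovary, 3 ranges that did not overlap. Its differences were 3.73 (ovary minus hypothalamus, limma adjusted p 2.54e-12), 2.86 (ovary minus pituitary, adjusted p 2.62e-10) and 0.87 (pituitary minus hypothalamus, adjusted p 0.000714). For its partner Col4a2 they were 3.27, 2.90 and 0.38, the last without a call (adjusted p 0.0984). The chains of the specialised type IV networks showed smaller differences. Col4a5 was higher in ovary by 1.13 and 0.83, Col4a4 by 0.64 and 0.54, and Col4a3 by 0.51 against hypothalamus, with no call against pituitary. The means of Col4a4 in hypothalamus and pituitary, 4.33 and 4.43, lay under the odorant receptor reference. Col4a6 passed in no contrast.

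All 6 type VI chains were higher in ovary than in both other tissues. Col6a1 had 6.06, 6.44 and 7.04 in hypothalamus, 6.6, 7.09 and 7.82 in pituitary and 9.46, 9.86 and 10.55 in ovary. It was higher in ovary by 3.43 against hypothalamus (limma adjusted p 2.81e-11) and by 2.81 against pituitary (adjusted p 1.07e-09). Against hypothalamus, Col6a2 was higher by 2.44, Col6a3 by 2.61, Col6a4 by 1.82, Col6a5 by 1.5 and Col6a6 by 0.72. In hypothalamus and pituitary the means of Col6a4, 4.48 and 4.43, and of Col6a5, 4.43 and 4.38, lay under the odorant receptor reference. Col6a5 ran from 5.01 to 7.38 in ovary, its highest value being that of the control low ovary. The pituitary exceeded the hypothalamus for Col6a1, by 0.63 (adjusted p 0.0162), and the call was lost without the stressed pituitary pool (adjusted p 0.0590).

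Among the 9 fibril-associated chains, which bind to the surface of fibrils or lie near them, Col12a1 showed the largest tissue difference. It had 4.58, 5.17 and 5.67 in hypothalamus, 5.0, 5.66 and 6.44 in pituitary and 7.71, 8.51 and 8.64 in ovary. The ovary was higher by 3.16 and 2.70 (limma adjusted p 4.39e-11 and 9.01e-10). Col14a1 had another pattern, since it was higher in both ovary and pituitary than in hypothalamus, by 0.89 and 0.87, while ovary and pituitary did not differ by a call. Col20a1 had the same calls, at 0.63 and 0.60. Col16a1 was higher in ovary by 0.82 and 0.56, and the 3 type IX chains, Col19a1 and Col22a1 passed in no contrast.

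The multiplexins Col15a1 and Col18a1, collagens of the basement membrane zone that carry heparan or chondroitin sulfate chains, were higher in ovary than in hypothalamus by 2.18 and 2.08 and than in pituitary by 1.68 and 1.62. Their differences of pituitary from hypothalamus, 0.50 and 0.46, were lost in 5 and 8 of the 18 fits that left out 1 array. Of the membrane-spanning collagens, Col25a1, which is known from neurons, ran the other way. It had 6.42, 6.58 and 6.99 in hypothalamus, 5.10, 5.77 and 6.27 in pituitary and 4.73, 5.33 and 5.66 in ovary. Ovary minus hypothalamus was -1.36 (-1.69 to -1.04, limma adjusted p 4.07e-07) and pituitary minus hypothalamus was -0.94 (adjusted p 6.78e-05). Ovary minus pituitary was -0.43 (adjusted p 0.0337) and was lost in 7 of 18 fits that left out 1 array. Col13a1, Col17a1 and Col23a1 passed in no contrast. Col8a1, a short chain collagen of vessel walls, was higher than in hypothalamus by 0.43 in ovary and 0.49 in pituitary. Col26a1 was higher in ovary by 0.40 and 0.55, the first being lost in 2 of 18 fits. Col7a1, Col8a2, Col10a1 and Col28a1 passed in none.

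Of 24 measured genes for collagen folding and modification, 19 were higher and 1 was lower in ovary than in hypothalamus, and 11 were higher and 6 lower than in pituitary. Of all genes, 25.7% were called higher and 21.5% lower in ovary than in hypothalamus. For ovary against pituitary these shares were 21.8% and 19.2%, and for pituitary against hypothalamus 19.9% and 19.6%. Serpinh1, which encodes HSP47, was higher in ovary by 3.45 and 1.68, and Plod2, a lysyl hydroxylase, by 4.43 and 1.82. Pituitary against hypothalamus gave 16 higher and 3 lower, among them P3h1, a prolyl 3-hydroxylase, at 2.22 and Sec24d, a coat protein of the vesicles that export procollagen, at 2.68. Of 12 genes for processing and cross-linking, 8 were higher and 2 lower in ovary than in hypothalamus, and 8 were higher and none lower than in pituitary. Pituitary against hypothalamus gave 4 of the 12 higher and 6 lower, with a median of -0.24. Lox, the lysyl oxidase that cross-links fibrils, was higher in ovary by 3.51 and 1.56.

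Fibril-binding proteoglycans and proteins showed 11 of 15 genes higher and none lower in ovary than in hypothalamus, against 25.7% and 21.5% of all genes. Lum was at 4.29 and Dcn at 3.23. In pituitary against hypothalamus Dcn was higher by 2.58, and 7 of the 15 were higher and 1 lower. Of 9 collagen receptor genes 7 were higher in ovary than in hypothalamus, Ddr2 by 3.16 and Itga2 by 3.61. Against pituitary 5 of the 9 were higher in ovary and 1 was lower. Of 15 basement membrane partners, the laminins, nidogens and proteoglycans that assemble with type IV collagen, 13 were higher in ovary than in hypothalamus. Against pituitary 12 were higher and 1 was lower, beside 21.8% and 19.2% of all genes. Nid1 was higher by 3.86 and 2.23. Among markers of vessels and stroma, all 10 mural, 8 of 10 endothelial and 8 of 10 fibroblast genes were called higher in ovary than in hypothalamus. In that contrast 1 fibroblast gene was called lower. Pituitary against hypothalamus gave 3 mural genes higher and 2 lower, 5 endothelial higher and 3 lower, and 4 fibroblast higher and 1 lower. The shares over all genes were 19.9% higher and 19.6% lower there. The summed log2 signal of the 10 mural genes was 63.9 to 69.8 in hypothalamus, 62.8 to 72 in pituitary and 88.4 to 90.9 in ovary, and that of the 10 fibroblast genes was 54.4 to 58.1, 57.3 to 63.6 and 72.3 to 76.7. Their part in the tissue differences was not tested.

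In the comparison of stress with control no collagen chain gene passed in any tissue, and no gene of the whole array did, so the background is 0% in hypothalamus, pituitary and ovary alike. The lowest limma adjusted p among the chains over the 3 tissues was 0.999, in ovary. At an unadjusted p under 0.05 there were 2 chains in each tissue, with backgrounds of 1.1%, 1.33% and 2.67% of all genes. By sign, 30 chains had a higher mean under stress in hypothalamus, 33 in pituitary and 8 in ovary, where 36 were lower. The median difference was 0.09, 0.16 and -0.14, against medians over all genes of -0.02, -0.04 and -0.02. Since each count of signs comes from the same 6 arrays, the chains in it are not separate observations. No difference of the stress effect between tissues passed either (0% of all genes, limma interaction terms on 18 arrays). In simulated data the term for ovary against hypothalamus called 9% of 2-fold changes, so 0 calls do not show that effects are absent. At an unadjusted p under 0.05 those terms held 4 chains for ovary against hypothalamus, 6 for ovary against pituitary and 2 for pituitary against hypothalamus, with backgrounds of 2.24%, 3.63% and 3.49%.

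In hypothalamus all 11 fibrillar chains had a higher mean in stressed mice, with a median of 0.36, and of 0.24 without the stressed low array. Both medians include the stressed pool, which carried the ovarian transcript Cyp11a1. For Col3a1, stress minus control was 1.33 in the pools, 0.38 in the high class and 0.11 in the low class. Of all 44 chains, 21 were higher and 23 lower in the stressed pool than in the control pool. The part of the ovarian transcripts in these values was not tested. Markers of cells that lie in vessels and coverings of the brain had mostly lower means under stress: all 8 meningeal genes (median -0.46), 9 of 10 mural genes (median -0.15) and 8 of 10 endothelial genes (median -0.15), none with a call. The summed log2 signal of the 8 meningeal genes was 50.2 to 56.9 in control and 49.1 to 52.7 in stressed mice, which overlap. The part of these cells in the collagen values was not tested. Col1a1 was at 6.41, 6.59 and 6.71 in the control high, low and pool arrays and at 6.64, 8.95 and 7.48 in the stressed ones. The stressed low mouse stood far above the others, and the stressed high mouse lay within the control range. The mean difference was 1.12 (SE 0.49, unadjusted limma p 0.0460) and was 0.49 without the stressed low array. Col5a1 was at 5.67, 5.36 and 5.37 in controls and at 6.25, 5.97 and 6.16 in stressed mice, with no overlap and a difference of 0.66 (SE 0.19, unadjusted limma p 0.00728). Groups also did not overlap for Col4a1, at 0.44, and for Col27a1. These 3 chains compare with 4.54% of all genes that did not overlap in hypothalamus. The lowest unadjusted p among chains with a lower mean belonged to Col25a1, Col20a1 and Col6a5, at -0.26, -0.19 and -0.22, none with a p under 0.05.

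In pituitary Col1a1 was at 6.79, 7.06 and 7.44 in control high, low and pool arrays and at 7.10, 9.80 and 8.51 in stressed ones. Again the stressed low mouse was highest, and the difference was 1.37 (SE 0.59, unadjusted limma p 0.0450) with all arrays and 0.71 without that array. Its partner Col1a2 was at 8.76, 9.26 and 9.46 in controls and at 9.22, 9.12 and 9.07 in stressed mice, which overlap. Col2a1 was at 6.27, 6.42 and 6.11 in controls and at 7.01, 8.10 and 6.51 in stressed mice, with no overlap and a difference of 0.94 (SE 0.38, unadjusted limma p 0.0371). Without the stressed low array that difference was 0.50. The groups were also apart for Col13a1, Col22a1 and Col26a1, the last at 0.44, so 4 chains did not overlap against a background of 6.08%. The chains with lower means and the smallest p were Col14a1, Col4a5 and Col5a3, at -0.24, -0.13 and -0.08. The stressed pituitary pool, which carried ovarian transcripts, had the highest signal of the tissue for 16 of 44 chains, and 39 chains were higher in it than in the control pool. Without both pools 26 chains in place of 33 had a higher mean under stress. The part of the ovarian transcripts in this was not tested.

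In ovary Col10a1, the type X chain, was at 4.21, 4.33 and 3.83 in control high, low and pool arrays and at 3.31, 3.70 and 3.45 in stressed ones. The groups did not overlap, the difference was -0.64 (SE 0.20, unadjusted limma p 0.0124), and the tissue mean lay under the odorant receptor reference. Col18a1 was at 6.57, 7.32 and 7.06 against 6.42, 6.23 and 6.62, a difference of -0.56 (SE 0.23, unadjusted limma p 0.0375) with overlap. Col6a3 followed at -0.46, which was -0.22 without the control low ovary. Among chains with a higher mean, the smallest p belonged to Col24a1 at 0.25, whose groups did not overlap. Its tissue mean also lay under the odorant receptor reference. Then came Col4a3 and Col17a1 at 0.24 and 0.12, that of Col4a3 being 0.12 without the control low ovary. The 2 chains without overlap compare with 8.77% of all genes. The count of 36 lower chains fell to 20 when the control low ovary was left out, 16 chains having turned.

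Cartilage and bone genes were high on 3 arrays, that of the stressed low hypothalamus, the stressed low pituitary and the control low ovary. The former 2 are tissues of 1 mouse. Col2a1 reached 7.99, 8.10 and 8.92 on them, against 5.44 to 6.16, 6.11 to 7.01 and 5.78 to 6.55 on the other arrays of each tissue. Acan, the aggrecan core protein of cartilage, was at 5.95, 5.95 and 6.22, and Ibsp, a bone sialoprotein, at 5.5, 5.21 and 6.32. Each was the highest value of its tissue. Ibsp is 1 of 6 bone genes measured, and the others are not shown singly. The summed log2 signal of the 6 bone genes was 28.74, 29.59 and 32.03 on these arrays. On the other arrays of each tissue it was at most 27.22, 29.17 and 30.93, so the gap was narrowest in pituitary. Of 9 cartilage genes 5 were highest on each of these 3 arrays, and Matn3, another cartilage gene, was at 4.27, 4.10 and 4.67, under the odorant receptor reference on the first 2. The summed log2 signal of the 9 genes was 45.8 to 47.3 in control and 46.3 to 51.4 in stressed hypothalamus, 44.4 to 46.2 and 44.1 to 49.8 in pituitary, and 44.4 to 50.7 and 45.7 to 47.3 in ovary. The part of these genes' source in the collagen differences was not tested.

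**Figure D4:**
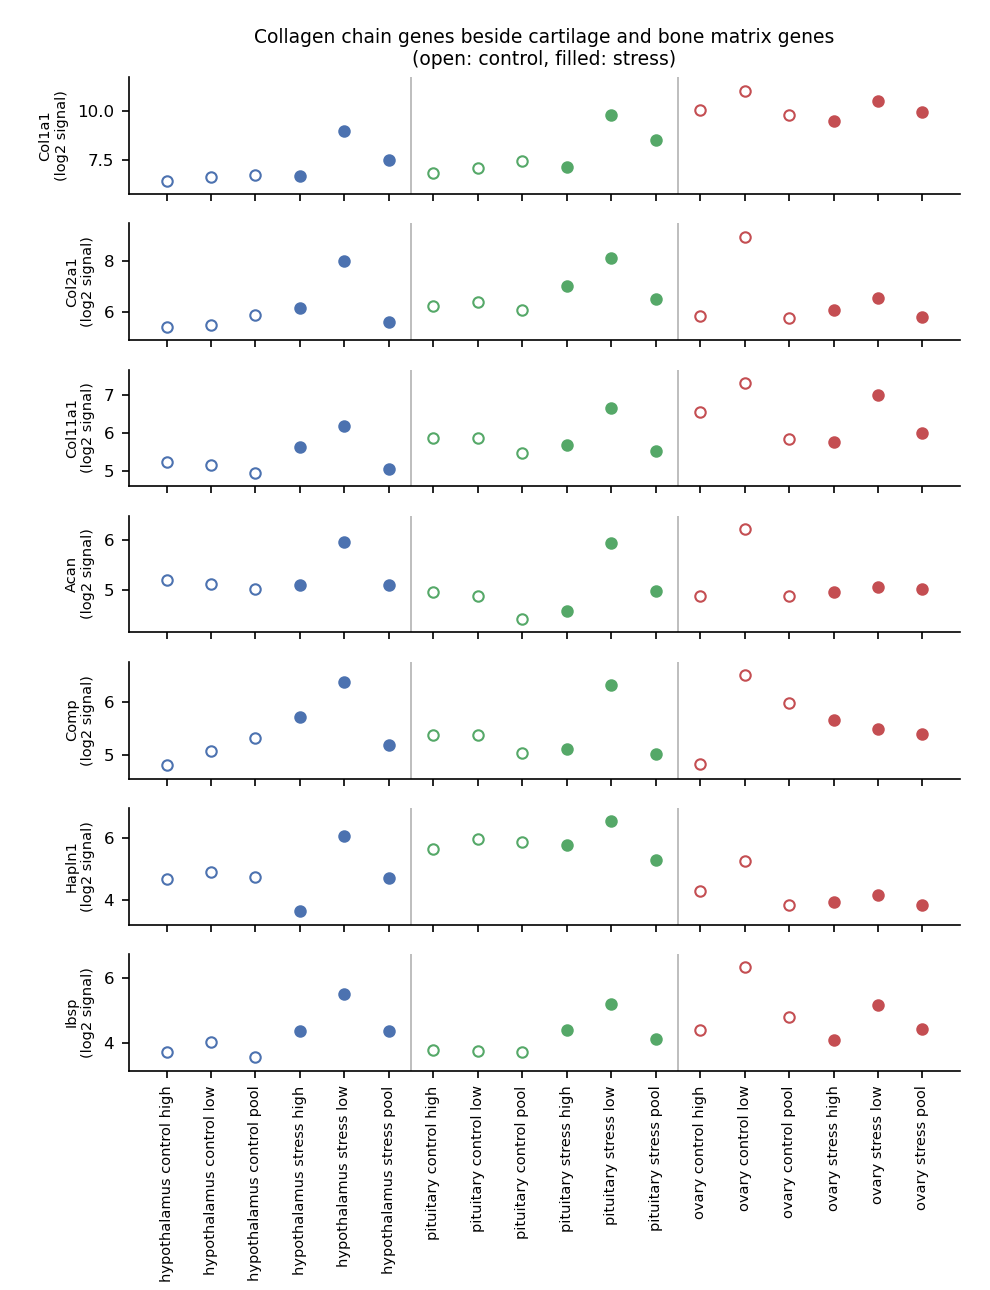
Log2 signal of 3 collagen chain genes and of the cartilage and bone matrix genes Acan, Comp, Hapln1 and Ibsp on each of the 18 arrays; open points are control, filled points stress, and each panel has its own axis. The stressed low hypothalamus, the stressed low pituitary and the control low ovary stand above the other arrays of their tissue for Col2a1 (7.99, 8.10 and 8.92) and for all 4 matrix genes.

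High against low ovulation compares 2 single mice with 2 others in each tissue, in a fit with class and treatment over 6 arrays. No collagen chain gene passed, and the background is 0% in hypothalamus, pituitary and ovary. The lowest adjusted p among the chains was 0.408 in ovary, 0.145 in hypothalamus and 0.900 in pituitary by limma. In ovary 38 of 44 chains had a lower mean in the high-ovulation mice, with a median difference of -0.27 against -0.003 over all genes. An unadjusted p under 0.05 with a lower mean was reached by 16 chains, against 5.29% of all genes. Leaving out the stressed high ovary reduced the 16 to 7. The high mouse lay below the low mouse in both treatments for 31 chains in ovary, 17 in pituitary and 7 in hypothalamus, with backgrounds of 29%, 28.4% and 29.5%.

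By kind, 10 of 11 fibrillar chains, all 6 type VI chains, 8 of 9 fibril-associated chains and 5 of 6 type IV chains had lower means in the high-ovulation ovaries. Col1a1 was at 10.02 in the high and 11.03 in the low control mouse, and at 9.49 and 10.53 in the stressed mice, while the pools were at 9.77 and 9.96. Both low mice thus lay above all other ovary arrays. The difference was -1.02 (SE 0.22, 95% interval -1.55 to -0.50, unadjusted limma p 0.00276, adjusted p 0.408). Col12a1 was at 8.04 and 8.64 in control and at 7.71 and 8.53 in stressed mice, a difference of -0.71 (unadjusted limma p 0.00381). Its pools, at 8.53 and 8.49, lay near the low mice. Col11a1 was at 6.54 and 7.31 and at 5.77 and 7.0, a difference of -1.0 (unadjusted limma p 0.00467).

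For Col1a2 the high and low control mice were at 9.75 and 10.39 and the stressed mice at 9.26 and 10.19. For Col3a1 they were at 10.73 and 11.05 and at 10.24 and 11.13. The type IV partners were close to each other in this comparison, with Col4a1 at -0.61 and Col4a2 at -0.61. Col4a1 was at 9.71 and 10.18 in control and at 9.41 and 10.16 in stressed mice, its pools being lower than all 4. Both ovary pools lay below all 4 single-mouse arrays for 13 chains, against a background of 16.2%. The chains with higher means and the smallest p were Col5a3, Col8a1 and Col4a3, at 0.26, 0.23 and 0.21, none with a p under 0.05.

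Col2a1 and Col6a5 had the largest differences, -1.76 and -1.49, and both rested in large part on the control low ovary. Col2a1 was at 5.87 and 8.92 in control and at 6.08 and 6.55 in stressed mice. Without the control low ovary its difference was -0.52, and without the stressed low ovary it was -3.01 and passed (limma adjusted p 0.0384), the only chain to do so in any such fit in ovary. In that fit the low class is the control low ovary alone, an array with high cartilage genes, and this 1 sample is assumed to vary like the other arrays. Col6a5 was at 5.01 and 7.38 and at 5.68 and 6.30, and its difference without the control low ovary was -0.82. Without that array 34 chains in place of 38 had a lower mean, of which 32 were among the 38, and 11 in place of 16 had an unadjusted p under 0.05.

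**Figure D5:**
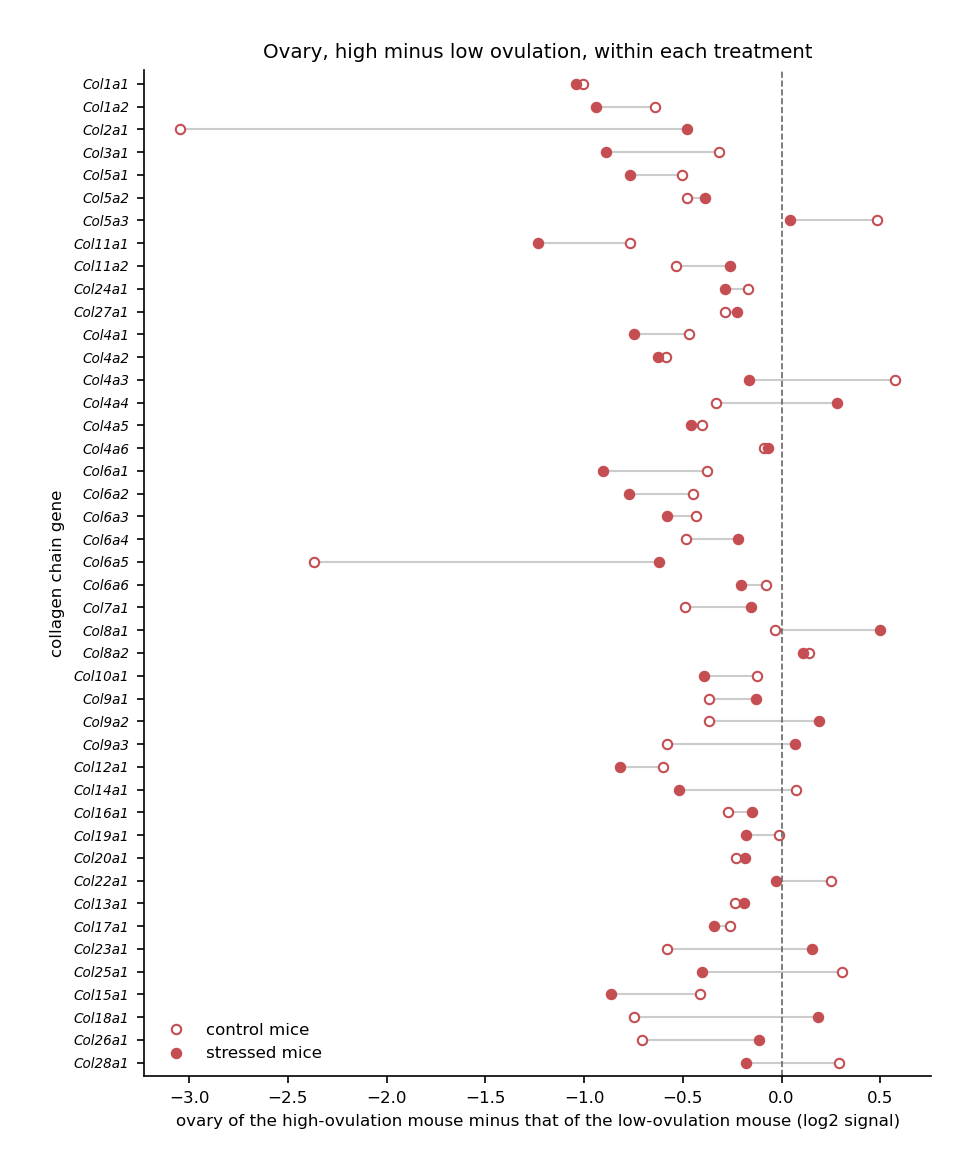
Log2 signal of the ovary of the high-ovulation mouse minus that of the low-ovulation mouse for each collagen chain gene, in control mice (open points) and in stressed mice (filled points). For 31 of the 44 chains both points lie below 0, and the control points of Col2a1 and Col6a5 lie farthest left.

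Among other genes in the ovary, all 15 basement membrane partners had lower means in the high-ovulation mice, with a median of -0.40 and no call. Hspg2, the perlecan core protein, was at -0.57 and Nid2 at -0.59. Their summed log2 signal was 115.6 to 117.3 in the high and 121.3 to 121.6 in the low mice. Of the 24 folding genes 16 were lower (median -0.15), and of the 15 fibril-binding genes 10 were lower (median -0.31), while Omd, at 1.10, and Aspn, at 0.81, were higher in the high mice without a call. Of 9 cartilage genes 8 were lower, with summed signals of 44.4 to 45.7 in high and 46.7 to 50.7 in low mice. Of 10 endothelial genes 8 were lower (median -0.14), of 10 fibroblast genes 7 (median -0.07) and of 10 mural genes 5 (median -0.05). The part of these cell types in the collagen differences was not tested.

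In pituitary 30 chains had a lower mean in high-ovulation mice (median -0.12), and 2 reached an unadjusted p under 0.05, against 5.23% of all genes. Col6a6 was at 4.82 in the high and 5.59 in the low control mouse and at 4.90 and 5.57 in the stressed mice, a difference of -0.72 (unadjusted limma p 0.0151, adjusted p 0.900). Col1a1 was at 6.79 and 7.06 and at 7.10 and 9.80, a difference of -1.49, which was -0.47 without the stressed low array. Col6a1 followed at -0.57. Of the chains with higher means, Col4a5, Col9a2 and Col6a4 had the smallest p, at 0.34, 0.29 and 0.16.

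In hypothalamus 29 chains had a higher mean in high-ovulation mice (median 0.09), and 7 reached an unadjusted p under 0.05, against 19.3% of all genes. Col1a2 was at 5.75 in the high and 6.24 in the low control mouse and at 5.76 and 6.99 in the stressed mice, a difference of -0.86 (SE 0.21, unadjusted limma p 0.00535, adjusted p 0.145). It passed when only genes at or above the median level of all genes were tested (adjusted p 0.0369), a set that held 14 chains. Without the stressed low array, with all genes tested, it was -0.57 (adjusted p 0.472). Col6a1 was lower by the same comparison, at -0.52, and Col1a1 was at -1.25, which was -0.32 without the stressed low array. Col4a4, Col22a1 and Col23a1 had higher means in the high mice, at 0.50, 0.48 and 0.59, that of Col23a1 being 0.28 without the stressed low array. All 6 type IV chains had higher means there, whereas 5 of the 6 had lower means in ovary. In hypothalamus the tissue means of Col4a4 and Col4a6, 4.33 and 4.43, lay under the odorant receptor reference, and that of Col4a3, 4.64, lay just above it. Without the stressed low array 4 of the 6 had a higher mean in the high-ovulation hypothalamus. In the same comparison all 8 meningeal genes (median -0.51) and 13 of 15 fibril-binding genes (median -0.52) had lower means in the high mice, with no call. Ogn, the fibril-binding protein osteoglycin, differed by -2.07 between the high and the low control mouse and by -2.11 between the stressed mice. The summed log2 signal of the meningeal genes was 49.1 to 50.2 in the high and 51.3 to 56.6 in the low mice, and that of the fibril-binding genes 80.5 to 81.0 and 89.0 to 90.1. Their part in the collagen differences was not tested.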

How the data were processed

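The authors deposited 1 table of log2 signals from Affymetrix Mouse Gene 2.0 ST arrays, made per the submitters' processing notes with Transcriptome Analysis Console. How signals were corrected for background, normalized or filtered there, and in which version, is not given in the sources used here. Per the labels' protocols, Trizol was used for extraction and biotin for labelling.

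Clusters naming exactly 1 gene were kept (23521 of 41345), and the cluster with the highest mean stood for a gene, which gave 22180 genes. No filter on low values was applied. The collagen genes, the lists and the rule for named genes were chosen with earlier results of these data known. That rule names chains of the main types and, in each stress and ovulation comparison, the 3 chains in each direction with the smallest p.

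Fits used limma 3.58.1 under R 4.3.3 (lmFit, eBayes) with p values adjusted by Benjamini-Hochberg across the 22180 genes and called at 0.05; all p values are two-sided. Tissue contrasts and interactions used 18 arrays with the mouse or pool as a random block, stress 6 arrays of a tissue, and ovulation class the same 6 with treatment in the model. Steps were tested on simulated data with the spread of these arrays, drawn independently for each array. Of 2-fold changes set into them, the stress fits called 44%, 14% and 51% in hypothalamus, pituitary and ovary. The fits of ovulation class called 77%, 39% and 77%. The number of arrays limits the precision.

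Whether ovulation class pairs control with stress was checked from deviations of arrays from group means: 9 same-class correlations ran from 0.359 to 0.727, and 18 different-class ones from -0.521 to 0.321. Deviations within a group cancel out, which lowers the different-class values. Among single mice the check hardly separated classes in pituitary. High with high was 0.366 and low with low 0.359, against 0.321 and 0.313 between high and low. It therefore cannot settle the pairing, which comes from the class names. Alternatives were quantile normalization, median centring, a low-value filter, array weights, the mean of a gene's clusters, no animal block, no treatment term, class as a replicate block, and leaving out each array or the pools. Leaving out the 3 arrays with high cartilage and bone genes was added after seeing the data. Figures were drawn with matplotlib 3.10.9.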

Additional observations from a re-analysis of the deposited data

How the results depend on the processing

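With ovulation class as a replicate block, 0 chains passed for stress in hypothalamus, pituitary and ovary, as without it. Since each class holds 1 control and 1 stress array, the block cannot change a difference, and 0 turned signs carry no information. Counts of calls moved by over 1.5 times in few settings. For pituitary minus hypothalamus 7 chains were called without the animal block and 7 without the pool arrays, in place of 11. The low-value filter left 14 to 27 chains in a fit. It drops genes and leaves the differences of the others as they were, so no sign could turn. Counted by sign and not by calls, 18 chains were then higher in ovary minus hypothalamus, 16 in ovary minus pituitary and 17 in pituitary minus hypothalamus, in place of 35, 33 and 34. Under it stress was higher for 11 chains in hypothalamus and 16 in pituitary. High ovulation was higher for 9 in hypothalamus, lower for 14 in pituitary and lower for 25 in ovary. These counts by sign are smaller because fewer chains were fitted. For high minus low ovulation in hypothalamus the filter gave 1 call, that of Col1a2, whose source was not tested. Leaving out single arrays gave 20 to 40 lower chains for stress in ovary, 0 to 1 calls and 7 to 16 chains at an unadjusted p under 0.05 for high minus low ovulation in ovary. Over all 44 chains, single alternatives turned at most 11, 13 and 16 signs for stress in hypothalamus, pituitary and ovary, 9, 14 and 8 for high minus low ovulation, and 3, 4 and 7 in the tissue contrasts (ovary minus hypothalamus, ovary minus pituitary, pituitary minus hypothalamus), none of a called difference. Among the chains named by the rule 6 uncalled differences turned. Under stress in pituitary, Col14a1 was 0.005 without the pools, Col5a3 was 0.0041 with array weights and -0.20 to 0.0207 with single arrays left out, and Col4a5 was -0.40 to 0.10. For high minus low ovulation, Col9a2 in pituitary was -0.13 to 0.71, Col8a1 in ovary -0.0085 to 0.48 and Col4a3 in ovary -0.088 to 0.50. The cause was not tested. Among single chains with a tissue call, 43 fits that left out 1 array and 26 other fits lost it, all with the direction kept. Without the 3 arrays with high cartilage and bone genes the calls numbered 28, 21 and 11 in place of 27, 22 and 11, but in part for other chains. Col26a1 lost its call in the first contrast, Col11a1, Col1a2 and Col25a1 in the second, and Col18a1 and Col27a1 in the third, while Col23a1 and Col9a3, Col2a1 and Col4a3, and Col1a1 and Col2a1 gained one. Those 3 arrays hold the highest Col1a1 and Col2a1 values of their tissues, so calls gained by these chains are no support for a difference. All stress and interaction counts of calls stayed at 0 in every alternative run. Signals near the odorant receptor reference limit what can be seen for the low chains.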
